A study of Mus musculus with 12 samples.

Results

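The genes described here are 10 glutathione S-transferase genes of the mouse liver: Gsta2, Gsta3 and Gsta4 of the alpha class, Gstm1, Gstm2, Gstm3, Gstm4 and Gstm6 of the mu class, Gstp1 of the pi class and Gstt2 of the theta class. They were chosen by name from the 54532 genes listed in the expression table, of which 11083 had a mean level of at least 1 FPKM and were tested, all 10 among them. FPKM is the number of sequenced fragments per kilobase of gene, scaled to the size of the library. The choice was made with earlier results of these data in view. For that reason the levels and differences of the 10 genes are given as a description with no p-value. Where it is said which of them passed a threshold, that too is a description. Adjusted p-values are printed for other genes only. The lists of those genes were also chosen with earlier results of these data known, which their p-values do not allow for.

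The samples were livers of 12 male C57BL/6J mice in 4 diet groups of 3 mice, each kept on its diet for 26 weeks from 5 weeks of age. ND mice received a normal diet and control mice a high-fat diet. HYA mice received the high-fat diet with 1% HYA, a hydroxylated product that gut bacteria make from linoleic acid, and LA mice the high-fat diet with 1% linoleic acid itself. The comparison of control with ND asks what the diet did, and those of HYA and LA with control ask what each fatty acid did on top of it. Both kinds of comparison share the 3 control mice. The normal and the high-fat diet were different products, so the first comparison is not one of fat content alone. The paper reports less weight gain and a lower liver weight in HYA mice than in control mice. The part of these in the levels was not tested. The 3 samples of a group were taken as 3 mice, as the study describes them.

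Glutathione S-transferases join the tripeptide glutathione to electrophilic compounds, which makes drugs, carcinogens and products of lipid peroxidation more soluble and prepares them for export from the cell. The liver is one of their main sites, and the soluble enzymes work as dimers of subunits from one class. Alpha, mu, pi and theta class enzymes differ in the substrates they prefer. Several of the genes are known targets of the transcription factor NRF2, which binds antioxidant response elements when electrophiles or oxidants accumulate, and others are controlled by xenobiotic receptors and by the sex-dependent pattern of growth hormone. The male mouse liver is known for its high level of Gstp1.

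The fragments that fell on genes numbered between 17169064 and 25220880 per mouse. Among the 10 genes the number ranged from 217 fragments for Gsta2 in the mouse with the fewest to 41864 for Gstm1 in the mouse with the most, and counting error was not separated from the spread between mice. The markers of hepatocytes summed to between 27074 and 41506 FPKM in every mouse, most of it from the albumin gene Alb. Lymphocyte markers summed to at most 3.64 FPKM and adipocyte markers to at most 9.01 FPKM. Of 6 markers of kidney and pancreas, Umod and Cpa1 were at 0 in all mice, and Slc34a1, Lrp2 and Prss2 did not exceed 0.124 FPKM. The sixth, Cela1, was at 6.61 to 11.3 FPKM in ND, 3.91 to 4.6 in control, 5.57 to 6.86 in HYA and 4.37 to 5.41 in LA, and its part in the results was not tested. In whole tissue, fewer cells of a type and less RNA per cell cannot be told apart.

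The regions before the genes are shown because near relatives behaved differently on the same diet. The windows reach from 250 bases before to 50 bases after the transcription start in RefSeq (build GRCm38.p6, the build of the expression table being GRCm38), written 5′ to 3′ on the strand of the gene. Windows were at hand for 8 of the 10 genes, 12 windows in all, and those of the genes that the results turn on are given here. Capitals mark the core of the antioxidant response element, TGACNNNGC, in Gsta3 and the AP-1 site, TGAGTCA, in Gstp1.
Gstm3, chr3:107969125-107969424, minus strand: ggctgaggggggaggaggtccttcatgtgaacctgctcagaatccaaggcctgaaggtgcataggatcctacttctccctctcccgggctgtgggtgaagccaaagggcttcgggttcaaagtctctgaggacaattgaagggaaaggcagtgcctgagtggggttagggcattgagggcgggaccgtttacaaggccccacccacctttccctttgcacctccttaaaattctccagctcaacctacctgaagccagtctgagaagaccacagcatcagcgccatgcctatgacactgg
Gstm2, chr3:107986371-107986670, minus strand: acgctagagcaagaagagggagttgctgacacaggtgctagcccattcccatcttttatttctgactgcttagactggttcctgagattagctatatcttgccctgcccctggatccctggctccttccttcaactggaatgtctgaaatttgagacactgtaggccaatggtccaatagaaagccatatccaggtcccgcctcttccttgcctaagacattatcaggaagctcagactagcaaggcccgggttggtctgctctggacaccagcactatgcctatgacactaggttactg
Gstm1, chr3:108017769-108018068, minus strand: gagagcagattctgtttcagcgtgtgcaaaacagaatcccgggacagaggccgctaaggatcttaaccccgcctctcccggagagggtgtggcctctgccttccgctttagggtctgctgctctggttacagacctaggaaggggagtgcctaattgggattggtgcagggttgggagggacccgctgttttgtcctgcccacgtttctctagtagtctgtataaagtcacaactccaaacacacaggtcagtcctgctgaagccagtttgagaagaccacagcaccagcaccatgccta
Gstp1, chr19:4037863-4038162, minus strand: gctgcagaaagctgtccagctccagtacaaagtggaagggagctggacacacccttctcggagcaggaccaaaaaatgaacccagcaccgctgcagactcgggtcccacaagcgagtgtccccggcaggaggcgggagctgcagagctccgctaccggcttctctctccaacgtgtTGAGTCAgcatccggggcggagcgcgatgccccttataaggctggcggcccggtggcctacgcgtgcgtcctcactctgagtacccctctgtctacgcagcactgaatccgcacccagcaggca
Gsta3, chr1:21240335-21240634, plus strand: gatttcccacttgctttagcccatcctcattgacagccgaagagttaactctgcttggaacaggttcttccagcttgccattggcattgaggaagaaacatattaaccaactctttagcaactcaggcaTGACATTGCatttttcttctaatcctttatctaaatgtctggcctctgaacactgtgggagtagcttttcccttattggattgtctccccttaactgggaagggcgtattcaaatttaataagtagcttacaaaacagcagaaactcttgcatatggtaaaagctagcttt

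Both strands were searched for the letters TGACNNNGC, for those of the AP-1 site, TGAGTCA, and for those of a STAT5 site, TTCNNNGAA. The exact letters TGACNNNGC occurred in 1 of the 12 windows, that of Gsta3, beginning 121 bases before the start (position -121), while 12.4% of all 32851 RefSeq windows of that length held them. The AP-1 site occurred in the Gstp1 window alone, at position -74, against 5.2% of all windows. It is followed there by gc, so the stretch differs from TGACNNNGC only by a G in place of the C. Looser forms of the antioxidant response element were not searched, so its absence from the Gstp1 window is not shown. The letters of the STAT5 site occurred in 1 window of Gstm6, against 8.3% of all windows. The AP-1 letters were added to the search after the windows had been read, and none of the matches overlapped another. The printed windows of Gstm3 and Gstm1 were the most alike of any between different genes, with 59.8% identical bases in a global alignment.

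On the high-fat diet the 10 genes went different ways. Gstm3 and Gstm2 were higher in control than in ND mice, Gsta2 and Gstp1 were much lower, Gsta4, Gsta3 and Gstm6 were lower by smaller amounts, and Gstm1, Gstm4 and Gstt2 had overlapping ranges. With HYA, Gstm3 stood at 0.48 times its control level, Gstm2 and Gstm1 were below control and Gsta3 was above it. With LA none of the 10 was apart from control. The plot of levels by mouse shows these patterns. How many of all tested genes had group ranges apart was not counted. Among the 10, Gstm3 alone passed the adjusted p for HYA against control.

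**Figure D1:**
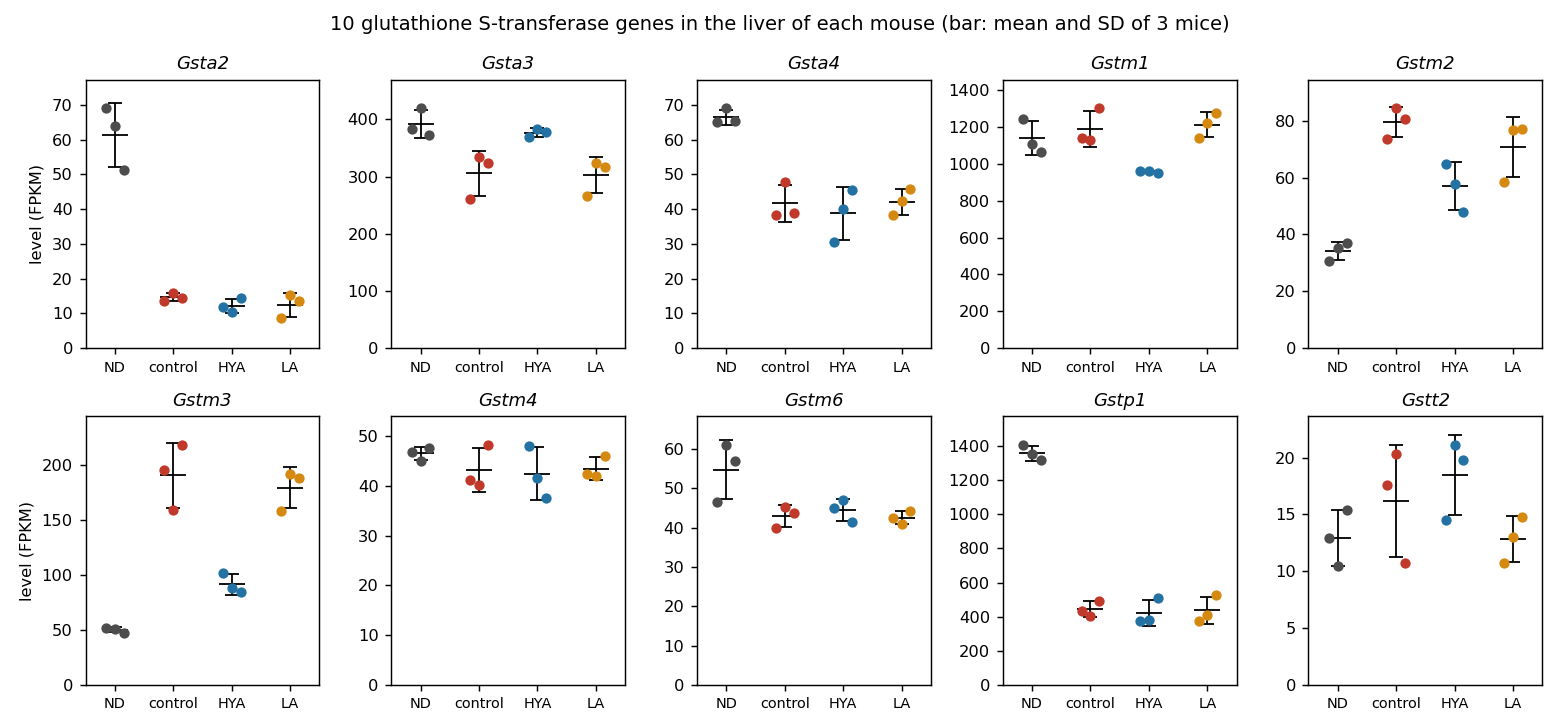
Level of each of the 10 genes (FPKM, linear axis from 0) in every mouse of the ND, control, HYA and LA groups, one point a mouse, with the mean and SD of 3 mice as bars. Gsta2 and Gstp1 were high in ND alone, while Gstm3 lay between 47.3 and 51.4 FPKM in ND, 159 and 218 in control, 84 and 102 in HYA and 158 and 192 in LA.

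Gstm3 (ENSMUSG00000004038, protein coding, minus strand, chr3:107963696-107969283) encodes a mu class subunit. Its level was 51.4, 51 and 47.3 FPKM in the ND mice and 195, 159 and 218 FPKM in the control mice. In the HYA mice it was 102, 87.8 and 84 FPKM, and in the LA mice 158, 192 and 188 FPKM. Every HYA mouse lay above every ND mouse and below every control and LA mouse, and the LA and control ranges overlapped. The control mean was 3.82 times the ND mean, a difference of 1.90 ± 0.12 on the log2(FPKM + 1) scale (standard error of the linear model over all 12 mice, n = 3 and 3). The HYA mean was 0.48 times the control mean, a difference of -1.04 ± 0.12 on the same scale, and 0.51 times the LA mean, a difference of -0.96 ± 0.12. The LA mean differed from the control mean by -0.08 ± 0.12.

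The HYA difference of Gstm3 lay next to the threshold of 1. It ranged from -1.17 to -0.94 when each of the 6 mice of the comparison was left out in turn. It was -0.94 without control mouse 3 and -0.99 without HYA mouse 3, which are both under that threshold, and -1.02 without HYA mouse 2, which left it over the fold threshold and short of the adjusted p.

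Gstm2 (ENSMUSG00000040562, protein coding, minus strand, chr3:107981702-107986453), the next mu class gene on the chromosome, had 30.8, 35.3 and 36.9 FPKM in the ND mice and 73.7, 84.3 and 80.6 FPKM in the control mice. The HYA mice had 64.8, 57.8 and 48 FPKM and the LA mice 58.4, 76.7 and 77.2 FPKM. All mice on the high-fat diet lay above all ND mice, and the HYA range lay below the control range but overlapped that of LA. The control mean was 2.32 times the ND mean (log2 difference 1.19 ± 0.13), and the HYA mean was 0.715 times the control mean (log2 difference -0.49 ± 0.13).

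Gstm1 (ENSMUSG00000058135, protein coding, minus strand, chr3:108012255-108017973) encodes the main mu class subunit of mouse liver. It was measured at 1244, 1106 and 1066 FPKM in the ND mice, 1141, 1128 and 1300.2 FPKM in the control mice and 1139, 1219.6 and 1275 FPKM in the LA mice. These 3 groups overlapped. In the HYA mice it was 959, 959.5 and 948 FPKM, below every other mouse on the FPKM scale. The SD was 6.51 FPKM there, against 68.4 to 95.9 FPKM in the other groups. The log2 difference was -0.31 ± 0.08 from control, -0.34 ± 0.08 from LA and -0.25 ± 0.08 from ND. These are differences of less than 1.3 times on the linear scale, the LA mean being 1.27 times the HYA mean. They depended on the scaling. On the TPM scale, in which every library sums to the same value, HYA differed by -0.44 from control, -0.46 from LA and -0.14 from ND.

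Gstm4 (ENSMUSG00000027890, protein coding, minus strand, chr3:108040408-108044894) ranged from 37.6 to 48.2 FPKM over the 12 mice, and no pair of groups was apart. Gstm6 (ENSMUSG00000068762, protein coding, minus strand, chr3:107938847-107943749) had 46.5, 61 and 56.9 FPKM in the ND mice against 39.8, 45.3 and 43.8 FPKM in the control mice, a log2 difference of -0.34 ± 0.09. Its HYA range of 41.4 to 47 FPKM overlapped ND, control and LA.

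The 5 mu class genes lie in one cluster with Gstm5 and Gstm7, 149 kb long from the first gene to the last (chr3:107895821-108044894). Their order is Gstm5, Gstm7, Gstm6, Gstm3, Gstm2, Gstm1 and Gstm4, and Gstm5 alone is on the plus strand. Gstm3 and Gstm2, the genes that were higher on the high-fat diet, are neighbours, with Gstm6 on one side and Gstm1 on the other. Gstm5 and Gstm7 were not among the 10 genes and were tested: the log2 difference of control from ND was 0.09 ± 0.08 for Gstm5 (adjusted p = 0.384, limma) and -0.24 ± 0.12 for Gstm7 (adjusted p = 0.126, limma), neither past the threshold. Both also missed it for HYA against control, with -0.21 ± 0.08 for Gstm5 (adjusted p = 0.186, limma) and 0.20 ± 0.12 for Gstm7 (adjusted p = 0.382, limma).

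**Figure D2:**
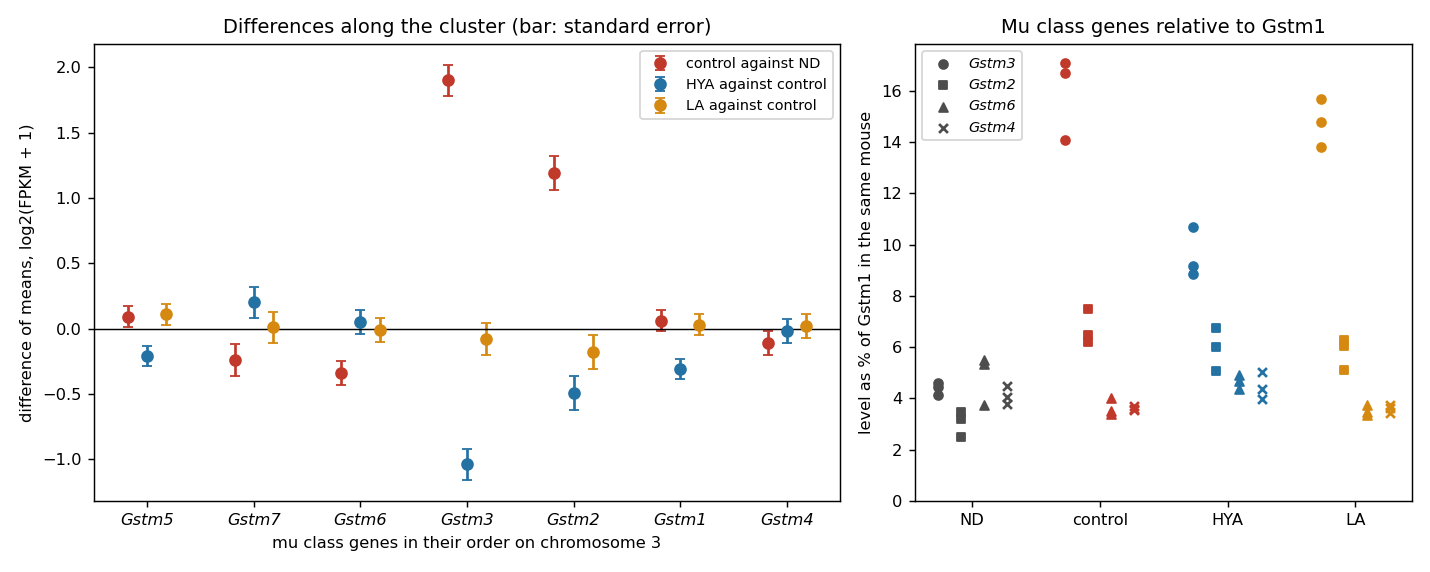
Left, difference of group means on the log2(FPKM + 1) scale with standard errors for the 7 mu class genes in their order on chromosome 3, comparing control with ND and each of HYA and LA with control. Right, level of Gstm3, Gstm2, Gstm6 and Gstm4 as a percentage of Gstm1 in each mouse: Gstm3 stood at 4.13% to 4.61% in ND, 14.1% to 17.1% in control, 8.86% to 10.7% in HYA and 13.8% to 15.7% in LA.

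A ratio within one mouse does not depend on how the library was scaled. The level of Gstm3 as a percentage of that of Gstm1 was 4.39 ± 0.245% in ND, 16 ± 1.62% in control, 9.56 ± 0.967% in HYA and 14.8 ± 0.929% in LA (mean ± SD, n = 3). Thus Gstm3 and Gstm1 changed unequally with diet and with HYA, and the HYA mice lay between the ND mice and the control mice. Gstm2 stood at 3.04 ± 0.51% of Gstm1 in ND and 6.71 ± 0.677% in control, but at 5.95 ± 0.848% in HYA, where its range of 5.06% to 6.76% overlapped the 6.2% to 7.48% of control.

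Reads of such similar genes can be assigned to the wrong copy. The coding sequences of the 5 mu class genes share between 79.4% and 89.4% of their bases, Gstm1 and Gstm3 being the most alike. Of all stretches of 150 bases, the read length, in the transcripts of Gstm3, 3.44% also occur in the transcript of another gene, Gm8834. For Gstm1, Gstm2, Gstm4 and Gstm6 none do. For stretches of 50 bases the share was 28.8% for Gstm3 and 18.9% for Gstm1, each through the other among several genes, 5.97% for Gstm6, 5.65% for Gstm2 and 0% for Gstm4. The share of 150-base stretches was 19.6% for Gsta2, through Gsta1, Gm10639 and Gm3776, and 17.6% for Gstp1, through Gstp2 and the pseudogene Gstp-ps, and that of 50-base stretches 49.8% and 33.7%. The levels of Gsta2 and Gstp1 are uncertain for this reason, and those of Gstm3 and Gstm1 for reads that overlap the gene in part. Gstp-ps followed Gstp1 at 11.6%, 11.7%, 10.8% and 11% of its level in ND, control, HYA and LA, a pattern that reads shared with Gstp1 would also give and whose source was not tested.

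Gstp1 (ENSMUSG00000060803, protein coding, minus strand, chr19:4035407-4037921), the pi class gene, was the highest of the 10 in ND mice, at 1406, 1354 and 1319 FPKM. It was 436, 405 and 493 FPKM in the control mice, 373, 379 and 508 FPKM in the HYA mice and 375, 410.3 and 525 FPKM in the LA mice. All 9 mice on the high-fat diet lay far below the 3 ND mice and the 3 high-fat groups overlapped. The ND mean was 3.06 times the control mean, a log2 difference of -1.61 ± 0.14 for control against ND. HYA differed from control by -0.09 ± 0.14 and LA by -0.04 ± 0.14 on the log2 scale.

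Gsta2 (ENSMUSG00000057933, protein coding, minus strand, chr9:78331018-78355788) encodes an alpha class subunit with broad activity, including peroxidase activity towards lipid hydroperoxides. It had 69, 64.1 and 51.2 FPKM in the ND mice, 13.6, 16 and 14.4 in the control mice, 11.9, 10.4 and 14.4 in the HYA mice and 8.65, 15.2 and 13.6 in the LA mice. The ND mean was 4.19 times the control mean, and the log2 difference of control from ND, -1.99 ± 0.19, was the largest of the 10 genes. As for Gstp1, the high-fat groups overlapped one another. The HYA difference from control was -0.25 ± 0.19.

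Gsta4 (ENSMUSG00000032348, protein coding, plus strand, chr9:78182774-78209349) encodes the alpha class enzyme known for conjugating hydroxynonenal, a product of lipid peroxidation. Its level was 65.1, 69 and 65.3 FPKM in the ND mice and 38.3, 47.8 and 39 FPKM in the control mice, a log2 difference of -0.67 ± 0.13. The HYA mice, at 30.6 to 45.6 FPKM, and the LA mice, at 38.3 to 45.7 FPKM, overlapped the control mice.

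Gsta3 (ENSMUSG00000025934, protein coding, plus strand, chr1:21240589-21265661) encodes the alpha class enzyme known in mice for detoxifying activated aflatoxin. On the FPKM scale it was the one member that was lower in control mice and near its ND level in HYA mice. It had 384, 419 and 372 FPKM in the ND mice, 260.4, 334 and 323 in the control mice, 369, 384 and 378 in the HYA mice and 266, 324 and 317 in the LA mice. The HYA range overlapped that of ND and lay above those of control and LA. The log2 difference was -0.36 ± 0.10 for control against ND and 0.31 ± 0.10 for HYA against control. The second did not pass the adjusted p. On the TPM scale the 2 differences were -0.13 and 0.19, and the first did not pass it either. The antisense gene model Gm28836, on the minus strand, overlaps Gsta3 and had a mean of 0 FPKM over all mice.

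Gstt2 (ENSMUSG00000033318, protein coding, minus strand, chr10:75831114-75837424), a theta class gene, was the lowest of the 10 when averaged over all mice, at 15.1 FPKM. It ranged from 10.5 to 15.4 FPKM in ND, 10.7 to 20.3 in control, 14.5 to 21.1 in HYA and 10.7 to 14.8 in LA. Its groups overlapped throughout and it varied most within a group, with an SD of 30.7% of the mean among control mice.

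**Figure D3:**
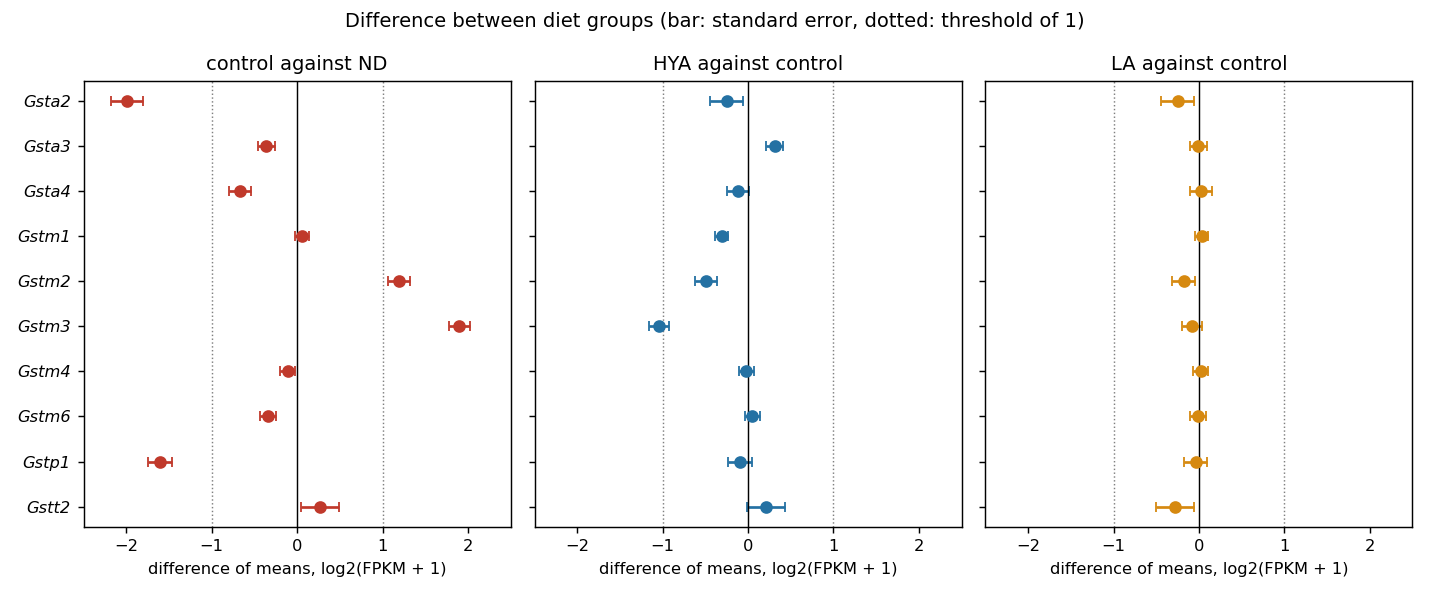
Difference of group means on the log2(FPKM + 1) scale for the 10 genes, comparing control with ND and each of HYA and LA with control, as points with standard errors, and dotted lines at the threshold of 1. For control against ND the differences span from -1.99 (Gsta2) to 1.90 (Gstm3), for HYA against control the largest is -1.04 (Gstm3), and for LA against control all lie between -0.28 and 0.03.

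Calls were made at an adjusted p under 0.05 with an absolute log2 difference above 1, the thresholds that the study used, and also at the adjusted p alone. Since the rule that chose the genes was not independent of these comparisons, the counts are a description. For control against ND, 2 members were called higher (Gstm2 and Gstm3) and 2 lower (Gsta2 and Gstp1), where 2.25% of all tested genes were called higher and 1.63% lower. At the adjusted p alone 2 were higher and 5 lower, Gsta4, Gsta3 and Gstm6 joining the lower ones, beside 16.2% and 19.1% of all genes. Gsta3 and Gstm6 fell short of the adjusted p without ND mouse 2 (differences of -0.31 and -0.26), without control mouse 1 (-0.25 and -0.28) and in a fit of the 2 groups alone, which left 3 lower, and Gstm6 did so without ND mouse 3 (-0.31). For HYA against control 1 member was called lower, Gstm3, under either rule, beside 0.144% of genes with the fold threshold and 1.23% without it. None was called higher, beside 0.162% and 1.57%. At the adjusted p alone Gstm1 and Gstm2 passed as well on the TPM scale, in which every library sums to the same value (-0.44 and -0.61). They also did so with voom (-0.41 and -0.60), and 3 were then lower in each. These 2 settings moved the median of all genes from 0.02 to -0.09 and -0.10. The share of all genes passing the adjusted p under them was not counted. Gstm1 also passed without control mouse 2 (-0.35), and none passed without HYA mouse 2 or in a fit of the 2 groups alone.

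For LA against control limma called no member and no gene (0%) under either rule. Without adjustment 294 of the 11083 genes had a p under 0.05. Voom on recovered fragments also called none, and with no filter on low values 1 gene passed the adjusted p without the fold threshold. For HYA against LA Gstm3 alone was past the adjusted p among the 10, where 0.253% of genes were lower and 0.235% higher. It fell short without HYA mouse 2 (-0.94), HYA mouse 3 (-0.91) or any single LA mouse (-1.05 to -0.91). With the fold threshold it was not called, beside 0.0812% of genes lower and 0.0271% higher. For HYA against ND 2 members, Gsta2 and Gstp1, were called lower (0.614% of genes) and none higher (1.27%). At the adjusted p alone 3 were lower (7.85% of genes), with Gsta4, and 2 higher (8.72%), Gstm2 and Gstm3. For LA against ND the 4 genes were those of control against ND, with 2 higher (2.13% of genes) and 2 lower (1.36%). At the adjusted p alone 2 were higher (14.4%) and 5 lower (16.6%), of which Gsta3 and Gstm6 fell short without ND mouse 2 (-0.33 and -0.27). Both also fell short on the TPM scale (-0.15 and -0.12) and with voom (-0.20 and -0.18). Gsta3 did so without LA mouse 1 too (-0.29), and Gstm6 without ND mouse 3 or LA mouse 2 (-0.32 each).

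The median log2 difference of the 10 genes was -0.22 for control against ND, where that of all tested genes was -0.04, and -0.10 for HYA against control, where that of all genes was 0.02. Rescaling each mouse to the same total (TPM) moved the median of all genes to 0.17 for control against ND and to -0.09 for HYA against control. The larger differences kept their sign: Gstm3 then differed by 2.15, Gstm2 by 1.44, Gsta2 by -1.80 and Gstp1 by -1.38 for control against ND. Small ones did not all do so. Gstm4 went from -0.11 to 0.12 for control against ND, and Gstm6 from 0.05 to -0.08 for HYA against control. On the TPM scale Gsta3 and Gstm6 fell short of the adjusted p for control against ND (differences of -0.13 and -0.11) and Gstm1 passed it (0.30). With voom the same 3 calls changed, at -0.17, -0.15 and 0.25.

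Added up, the 10 genes reached 3216 ± 139.7 FPKM in ND, 2369 ± 175 in control, 2057 ± 58.9 in HYA and 2353 ± 205 in LA (mean ± SD, n = 3). All high-fat mice lay below all ND mice, and the HYA range of 2018 to 2125 FPKM lay below both the control range of 2257 to 2570.2 and the LA range of 2138 to 2546. The control sum was 73.6% of the ND sum, or 86.7% on the TPM scale. The HYA sum was 86.9% of the control sum, or 79.6% on the TPM scale. On that scale the ranges of control (6191 to 7178) and LA (5959.6 to 7228) overlapped that of ND (7169 to 8235), while HYA (5161 to 5429.7) stayed below all 3. The lower HYA sum in FPKM did not extend to the family. All 27 listed transferase genes summed to 3945 to 4019 FPKM in HYA, within the control range of 3899.5 to 4309. On the TPM scale the HYA sum of the 27 (10216 to 10360.4) lay below that of control (11226 to 12033).

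The make-up of the sum of the 10 genes changed more than its size. In ND mice Gstp1 made up 42.3 ± 0.519% of it and Gstm1 35.4 ± 1.47%, and Gstp1 was first and Gstm1 second in rank. In control mice Gstm1 made up 50.2 ± 0.637% and Gstp1 18.8 ± 0.872%, and Gstm1 ranked first in all high-fat groups. The 5 mu class genes together made up 41.2 ± 1.01% in ND, 65.2 ± 1.17% in control, 57.9 ± 3.04% in HYA and 65.8 ± 1.68% in LA. The 3 alpha class genes made up 16.2 ± 0.913% in ND, 15.3 ± 1.9% in control, 20.8 ± 0.55% in HYA and 15.2 ± 0.797% in LA. Gstm3 moved from rank 7 in ND to 4 in every high-fat group. Gsta2 went from rank 5 to rank 10.

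**Figure D4:**
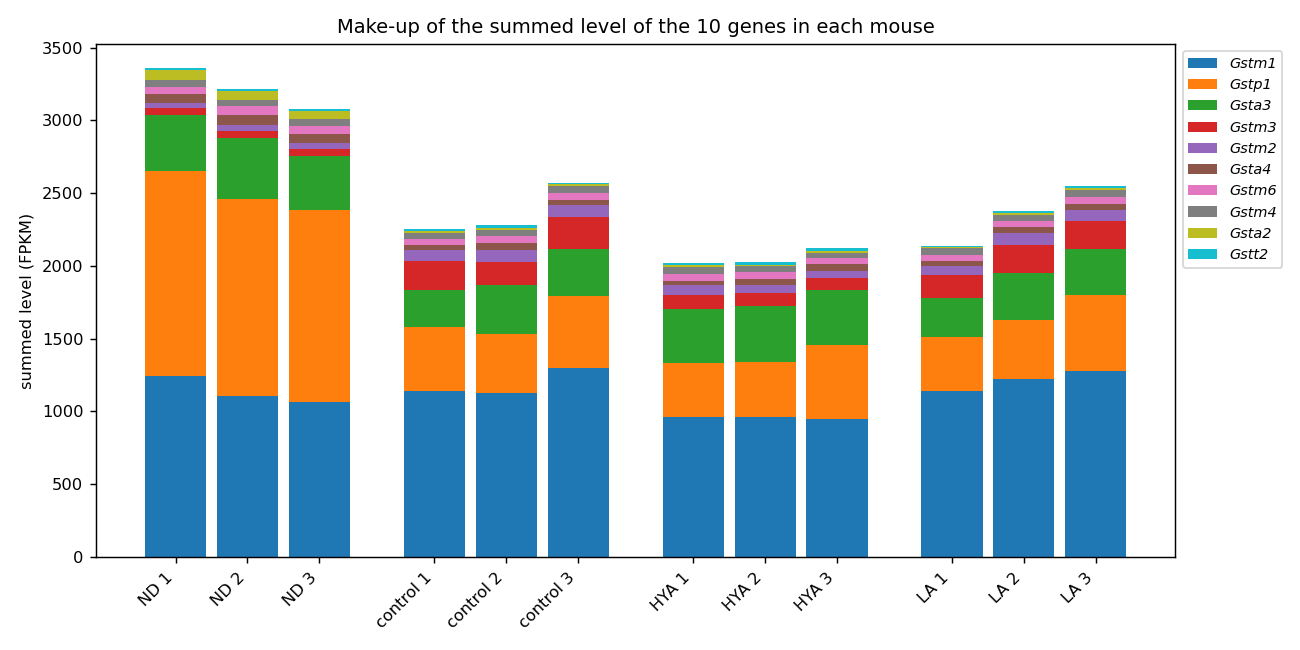
Summed level of the 10 genes (FPKM) in each of the 12 mice, stacked by gene. The ND bars reach 3077 to 3357 FPKM with Gstp1 as the largest part, and in all high-fat mice Gstm1 is the largest part.

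LA mouse 1 was the lowest of its group in 8 of the 10 genes, and LA mouse 3 the highest in 7 of 10. Among control mice, mouse 1 was the lowest in 5 genes and mouse 2 the highest in 6. These were differences of level within a group and crossed no boundary between ND and the high-fat groups for Gsta2, Gstp1, Gsta4, Gstm2 or Gstm3. The same counts were not made over all tested genes. Whether they are particular to the 10 genes was therefore not tested.

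Markers of other liver cells also differed between the groups. The counts here are at the adjusted p alone. For control against ND, 4 of 8 stellate cell, 4 of 7 endothelial, 2 of 4 bile duct and 2 of 7 macrophage markers tested rose, beside 16.2% of all genes. Of the others, 6 of 7 hepatocyte and 1 of 7 macrophage markers fell, beside 19.1% of all genes. For HYA against control 2 stellate cell and 2 bile duct markers fell, beside 1.23% of all genes, and no hepatocyte, endothelial or macrophage marker passed. The summed level of 8 stellate cell markers was 34.7 to 45.1 FPKM in ND, 72.2 to 94.7 in control, 59 to 74 in HYA and 77.9 to 92.9 in LA. The fibrillar collagen gene Col1a1 was at 0.72 to 1.33 FPKM in ND, 7.72 to 13.2 in control, 3.08 to 5.01 in HYA and 7.98 to 11.2 in LA. The HYA range of the stellate cell sum overlapped that of control, and that of Col1a1 did not. The 7 bile duct markers summed to 25.3 to 35.2 FPKM in ND, 83.1 to 177 in control, 43.6 to 57.3 in HYA and 86.2 to 141 in LA. Without Spp1, which macrophages also express, the same list summed to 9.36 to 10.8, 8.9 to 12.8, 7.12 to 8.63 and 8.83 to 12.9 FPKM. The 7 hepatocyte markers present in the table summed to 40099 to 41506 FPKM in ND, 27074 to 30625 in control, 34724 to 35766 in HYA and 29805 to 30459 in LA. The part of these shifts in the levels of the 10 genes was not tested.

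The genes whose values ran closest to a member over the 12 mice were sought among all tested genes that are no glutathione S-transferase, by the root mean square difference of log2(FPKM + 1) values after centring each gene. This was done for the 4 members whose group means spanned more than 1 log2 unit. Gstm3 was followed most closely by Cd63, a tetraspanin of late endosomes (0.189), Lgals1, the galectin-1 gene (0.201), and Uap1l1 (0.207). Gstm2 was followed by Glipr1 (0.156), Lrrc14b (0.158) and the gene model Gm6665 (0.169), whose transcript shares stretches of 50 bases with Gstm1 and Gstm2. Gstp1 was followed by Cyp3a11, a drug-metabolising cytochrome (0.215), Enho, the adropin gene (0.224), and Slco2a1, a prostaglandin transporter (0.247). Gsta2 was followed by the pseudogene Gm3787 (0.312), Enho (0.337) and Etnppl (0.342). Among the members themselves Gsta2 and Gstp1 differed by 0.293, less than Gstm2 and Gstm3 at 0.378.

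Other genes of the family were tested. Of 19 on the list, 17 were in the table and 13 had a mean of at least 1 FPKM. For control against ND, 3 of the 13 rose and 4 fell, and the other 6 did not pass (median log2 difference -0.13, all genes -0.04). In this and the following lists a pass means the adjusted p alone, which 16.2% of all tested genes passed as higher and 19.1% as lower for control against ND, and 1.57% and 1.23% for HYA against control. Those that rose were Gsta1, an alpha class gene, from 5.08 ± 2.6 to 14.2 ± 1.21 FPKM (log2 difference 1.40 ± 0.24, adjusted p = 0.00137, limma), Mgst3, a membrane-bound transferase and peroxidase (0.88 ± 0.14, adjusted p = 0.000723, limma), and Gstp3 (0.37 ± 0.13, adjusted p = 0.0441, limma). Those that fell included Gstt3, a theta class gene, from 15 ± 2.25 to 7.58 ± 1.83 FPKM (-0.92 ± 0.16, adjusted p = 0.00118, limma), and Gsto1, the omega class reductase (-0.62 ± 0.09, adjusted p = 0.000455, limma). Smaller falls were those of Gstz1, which acts in tyrosine breakdown (-0.24 ± 0.08, adjusted p = 0.0368), and the microsomal Mgst1 (-0.23 ± 0.07, adjusted p = 0.0272, both limma). Gstk1, the kappa class gene, did not pass (0.17 ± 0.11, adjusted p = 0.25, limma). On the TPM scale the split of the list was 6 higher and 2 lower, and Mgst1 changed sign to 0.0041. The median of all genes was 0.17 on that scale. The share of all genes passing there was not counted.

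With HYA 1 of the 13 passed against control, Gsta1, which fell from 14.2 to 5.35 ± 1.27 FPKM (-1.27 ± 0.24, adjusted p = 0.0304, limma). Its mice had 15.6, 13.5 and 13.4 FPKM in control, 4.1, 5.31 and 6.64 in HYA, 12.2, 11 and 13.2 in LA and 7.98, 4.28 and 2.97 in ND. The HYA mice thus overlapped the ND mice. The call was lost in 7 of 13 alternative fits, among them those without control mouse 1 (adjusted p = 0.126), without HYA mouse 2 (adjusted p = 0.126) and of the 2 groups alone (adjusted p = 0.111, limma). Gsta1 stood at 8.02 ± 3.11% of Gsta2 in ND and 97.5 ± 15.4% in control, so these neighbouring alpha class genes, which share sequence, went in opposite directions. No listed gene passed for LA against control. Of the 4 genes with a mean under 1 FPKM, Gstt4 was at 0 in all mice, Gsto2 and Mgst2 never exceeded 0.142 FPKM, and Hpgds, the haematopoietic prostaglandin D synthase, ranged from 0.186 to 0.245 FPKM in ND and from 0.444 to 0.898 in control.

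**Figure D5:**
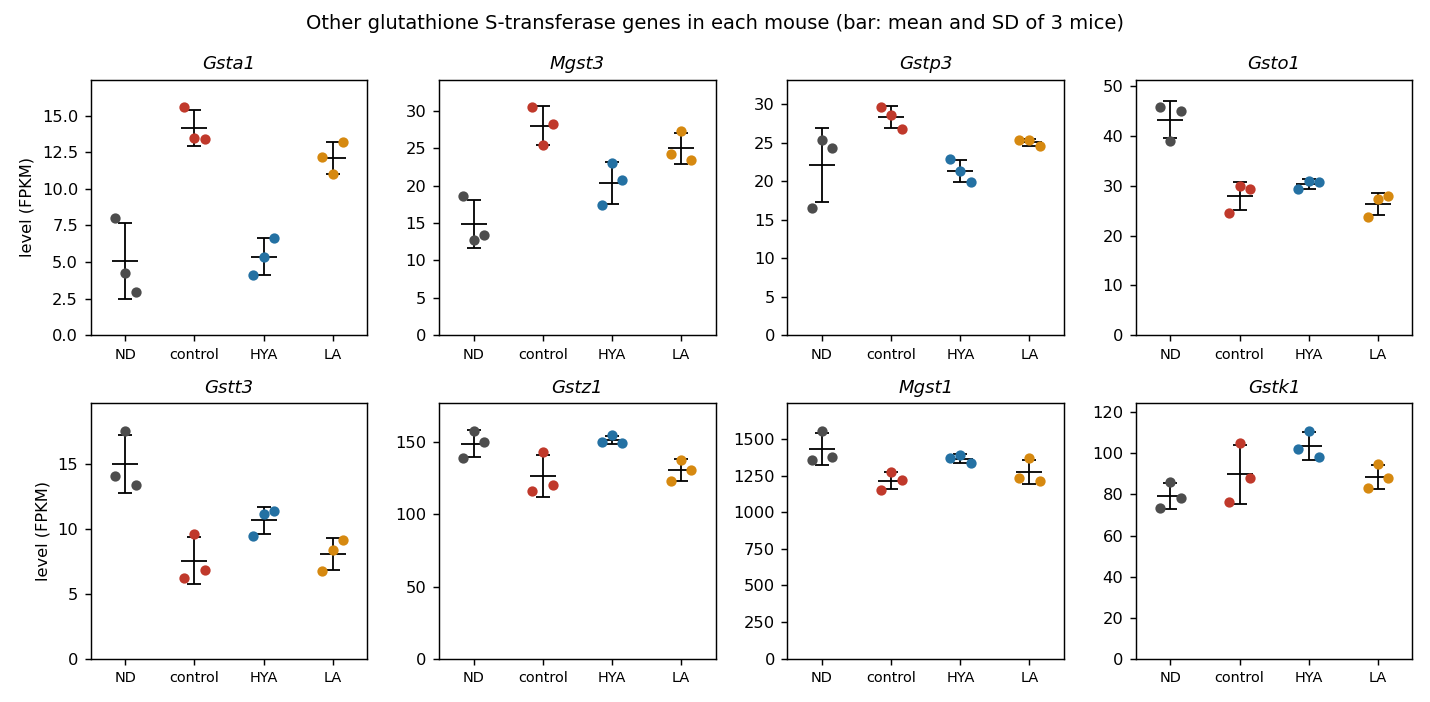
Level (FPKM, linear axis from 0) of 8 other glutathione S-transferase genes in each mouse of the 4 groups, with the mean and SD of 3 mice as bars. Gsta1 lay between 13.4 and 15.6 FPKM in control, 4.1 and 6.64 in HYA and 2.97 and 7.98 in ND.

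For the synthesis and recycling of glutathione, mRNA levels of 14 genes were examined, 13 of them tested, and glutathione itself was not measured. For control against ND 4 rose and 4 fell (median log2 difference -0.08, all genes -0.04). Those that rose included Pgd, of the pentose phosphate pathway (1.04 ± 0.08, adjusted p = 9.58e-06, limma), and Me1, malic enzyme (1.09 ± 0.09, adjusted p = 1.48e-05, limma), both of which make NADPH. Cth, which makes cysteine for glutathione, fell from 157 ± 9.85 to 60.4 ± 11.8 FPKM (-1.38 ± 0.15, adjusted p = 7.65e-05, limma). Gclm, the modifier subunit of the first enzyme of glutathione synthesis, fell (-0.44 ± 0.05, adjusted p = 9.84e-05, limma), whereas its catalytic subunit Gclc did not pass (-0.13 ± 0.24, adjusted p = 0.713, limma). With HYA, 1 of the 13 passed, Pgd, which was lower than in control (-0.37 ± 0.08, adjusted p = 0.0448, limma).

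Among 13 enzymes that use glutathione without being transferases, 6 rose and 3 fell for control against ND (median log2 difference 0.15, all genes -0.04). Gpx4, which reduces lipid hydroperoxides in membranes, rose (0.96 ± 0.08, adjusted p = 1.30e-05, limma), as did the secreted peroxidase Gpx3 (1.29 ± 0.13, adjusted p = 3.75e-05, limma). Hagh, which acts in the disposal of methylglyoxal, fell (-0.70 ± 0.07, adjusted p = 3.22e-05, limma). Between HYA and control, 3 fell and 1 rose: Gpx7 (-0.46 ± 0.08, adjusted p = 0.0271), Gpx3 (-0.62 ± 0.13, adjusted p = 0.0348) and Gpx4 (-0.36 ± 0.08, adjusted p = 0.0443) were lower and Hagh was higher (0.36 ± 0.07, adjusted p = 0.0292, all limma).

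Of 12 tested genes for the export of glutathione conjugates and their conversion to mercapturic acids, 1 rose and 7 fell for control against ND (median log2 difference -0.33, all genes -0.04). Nat8, an N-acetyltransferase of the last step, fell from 22.4 ± 2.5 to 5.21 ± 1.18 FPKM (-1.92 ± 0.19, adjusted p = 4.61e-05, limma) and its relative Nat8f1 fell by 1.26 ± 0.15 on the log2 scale (adjusted p = 0.000145, limma), followed by Ggt6 (-0.41 ± 0.09, adjusted p = 0.00515, limma). On the TPM scale, where the median of all genes was 0.17, 2 of the list were higher and 2 lower. With HYA 1 rose from its control level, Nat8f1 (0.66 ± 0.15, adjusted p = 0.0487, limma).

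Of 13 tested NRF2 regulators and reporters, 5 rose and 2 fell for control against ND (median log2 difference -0.02, all genes -0.04). Nfe2l2, which encodes NRF2, rose from 21 ± 2.43 to 35.4 ± 2.91 FPKM (0.73 ± 0.10, adjusted p = 0.000247, limma), as did Srxn1, sulfiredoxin (1.34 ± 0.11, adjusted p = 1.49e-05), Nqo1, a quinone reductase (1.04 ± 0.11, adjusted p = 5.23e-05), and Hmox1, haem oxygenase (0.53 ± 0.13, adjusted p = 0.00909, all limma). Between HYA and control Srxn1 alone passed (-0.54 ± 0.11, adjusted p = 0.039, limma). Gclm, which is on this list too, fell as stated above. The other gene that fell was Osgin1, from 115 ± 8.17 FPKM in ND to 51.4 ± 31.1 in control, a call lost in 5 of 13 alternative fits.

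Of 9 tested xenobiotic receptors and reporters none rose and 3 fell for control against ND (median log2 difference -0.32, all genes -0.04): Cyp3a11 from 958 ± 62.5 to 267 ± 18.3 FPKM (-1.84 ± 0.08, adjusted p = 1.32e-07), Cyp2b10 (-0.97 ± 0.13, adjusted p = 0.000322) and Cyp1a2 (-1.64 ± 0.24, adjusted p = 0.000483, all limma). None passed for HYA against control. Of 9 tested liver genes known to differ between the sexes, 6 fell and 2 rose with the diet (median log2 difference -2.20). Cyp2d9 (-1.98 ± 0.10, adjusted p = 6.32e-07) and Cyp4a12a (-2.29 ± 0.21, adjusted p = 2.22e-05), which are typical of males, fell, and Cyp2b9, typical of females, rose (3.23 ± 0.19, adjusted p = 1.33e-06, all limma). For HYA against control 4 rose and 2 fell, with Cyp2d9 at 0.77 ± 0.10 (adjusted p = 0.0141), Cyp4a12a at 1.35 ± 0.21 (adjusted p = 0.0168) and the transporter gene Slco1a1 at 2.30 ± 0.42 (adjusted p = 0.0271, all limma).

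Genes of the pericentral hepatocytes, where many detoxifying enzymes are made, showed 2 rises and 2 falls among 10 for control against ND, and those of periportal hepatocytes 1 rise and 4 falls among 10. The pericentral counts were close to the shares of all genes given above, and the median log2 differences were -0.04 and -0.47, beside -0.04 for all genes. Of the pericentral genes Slc13a3 rose (1.00 ± 0.11, adjusted p = 9.05e-05), and Cyp2e1 (-0.84 ± 0.18, adjusted p = 0.00385) and Lgr5 fell (-0.41 ± 0.09, adjusted p = 0.00648, all limma). Of the periportal genes Hsd17b13 rose (0.82 ± 0.06, adjusted p = 7.38e-06), and Hal (-1.84 ± 0.17, adjusted p = 2.98e-05) and Cyp2f2 fell (-0.96 ± 0.11, adjusted p = 9.82e-05, all limma). For HYA against control 1 gene of each list passed, Cyp2e1 higher (0.79 ± 0.18, adjusted p = 0.0452) and the periportal Hsd17b13 lower (-0.35 ± 0.06, adjusted p = 0.0257, both limma). Of the 16 calls that these lists held for HYA against control, none was kept in every one of the 13 alternative fits, whereas 44 of 58 were for control against ND.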

How the data were processed

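Liver RNA of 12 mice was sequenced in pairs of 150-base reads. Per the submitters' processing notes, fastp, HISAT2 2.0.5 and featureCounts 1.5.0-p3 were used with GRCm38. The authors deposited one table of FPKM values for 54532 genes. FPKM multiplied by gene length and divided by the value of 1 fragment in that library, estimated from its low genes, gave whole numbers within 0.05 for 100.0% of values above 0, which served for depth and for one alternative. The 11083 genes averaging 1 FPKM or more over the mice were tested as log2(FPKM + 1) with limma 3.58.1 (R 4.3.3). All 12 mice were in one fit, with a trend and two-sided Benjamini-Hochberg adjusted p. The code of the fit had first been run on simulated counts with the same dispersion for every gene. That run does not show how far the calls here depend on single mice. A log2 difference with the pseudocount of 1 understates changes of low genes. The members and the gene lists were chosen with earlier results of these data known. Besides all members, the 3 genes of each list with the lowest adjusted p and a few preset ones (Gclc, Gclm, Nqo1, Hmox1, Nfe2l2, Gstk1, Gstz1, Gsto1, Mgst1) are named, and further genes where a count is small. Gsta1, Gstp3, Gstm5, Gstm7, Osgin1 and Col1a1 were named after their values were seen. Shared stretches and coding identity came from GENCODE M21 transcripts, promoter windows from RefSeq. Alternatives were another pseudocount, TPM, median-ratio size factors, no filter, a fit of 2 groups, the replicate number as a block, voom, and leaving out each mouse.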

Additional observations from a re-analysis of the deposited data

Results flagged for a closer look

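In 3 of the genes described outside the 10 chosen ones, the response to HYA differed from that to LA on the same high-fat diet, as given by the test of HYA against LA in the fit over all genes. Gpx7, a peroxidase-like enzyme of the secretory pathway, differed by -0.51 (adjusted p = 0.0365, limma), with 1.14 ± 0.101 FPKM in HYA and 2.04 ± 0.204 in LA. The cytochrome genes Cyp2b9 and Cyp2b13, which are typical of the female liver, differed by -1.30 and -1.38 (adjusted p = 0.0317 for each, limma). Cyp2b9 had 40.9 ± 9.97 FPKM in HYA and 100.2 ± 4.7 in LA, and Cyp2b13 had 1.88 ± 0.903 and 6.29 ± 0.979. In each of the 3 genes all 3 HYA mice lay below all 3 LA mice. The calls rested on the mice included: that of Gpx7 was lost in 8 of 13 alternative fits, that of Cyp2b13 in 7 and that of Cyp2b9 in 6. For these 3 genes, leaving out any single LA mouse was among the fits that lost it.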

How the results depend on the processing

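Over 780 recomputed log2 differences of the 10 genes, 734 moved by less than the SD between mice and 46 by more, and none that had passed the adjusted p changed sign. The 430 genes called for control against ND became 692 with a pseudocount of 0.1, 711 on the TPM scale, 1678 with voom and 3910 at the adjusted p alone. The higher share of calls went from 57.9% to 80.6% with TPM and 86.9% with voom. The 34 called for HYA against control became 11 with no filter, 0 in a fit of the 2 groups, 165 with voom, 310 at the adjusted p alone and 0 (without HYA mouse 2) to 68 (without control mouse 2) without one mouse, where the higher share fell from 52.9% to 35.3% with TPM and 12.7% with voom. The 12 called for HYA against LA became 27 with TPM, 0 with no filter, 25 in a fit of the 2 groups, 75 with voom, 54 at the adjusted p alone and 0 (without HYA mouse 2, LA mouse 1 or LA mouse 2) to 8 without one mouse. The 209 called for HYA against ND became 325 (pseudocount 0.1), 598 (voom) and 1836 (adjusted p alone), and the 387 for LA against ND became 590, 1476 and 3445, and 616 with TPM. The cause was not tested.

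Of the 10 genes, 4 were called for control against ND and for LA against ND, and 7 at the adjusted p alone in each. For HYA against ND these counts were 2 and 5. The 1 called for HYA against control became 0 in the fit of the 2 groups, and 0 to 1 without one mouse. The 0 called for HYA against LA became 1 with TPM, with voom and at the adjusted p alone, and 0 to 1 without one mouse. Gstm2 fell short of the fold threshold for LA against ND without ND mouse 1 (0.94), LA mouse 2 or LA mouse 3 (0.95 each). The summed level was 86.7% (control of ND) and 79.6% (HYA of control) with TPM. Of the 58 pathway genes that passed the adjusted p for control against ND, 3 changed sign with TPM: Abcc3 (0.03), Gpx1 (0.0035) and Mgst1 (0.0041).

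Mice with the same replicate number share only that number: the correlation of their deviations ranged from -0.396 to 0.294 over 18 pairs (median 0.00806). With the replicate block, 430 genes were called for control, 211 for HYA and 386 for LA when each was set against ND. Set against control, 41 were called for HYA and 0 for LA, and 29 separated HYA from LA. In the same order, the members called stayed at 4, 2, 4, 1, 0 and 0. With 3 mice a group, the number of mice limits the precision.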
